A study of Equus caballus with 45 samples.

Results

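Equine bone marrow mesenchymal stromal cells (MSC) treated with a TLR3 agonist were compared with untreated MSC of the same horses. The comparison took 6 of the 45 RNA sequencing libraries of the series, which were picked by the treatment in their names: 3 libraries of MSC given poly I:C and 3 of untreated MSC. Each treatment has 1 library from each of the horses labeled PC, 99 and 92, and libraries were paired by that label. The donors were aged 3 to 4 years (2 females and 1 male), and the cells came from sternal marrow. They were exposed to poly I:C for 2 h, washed and cultured for 24 h before lysis, so the RNA shows the cells a day after the agonist was removed. The dose is uncertain, since the sample labels give 10 ng/ml, while the series design and the study's methods give 10 µg/ml. MSC of the same donors given the STING agonist 2′3′-cGAMP entered the model as a further condition, and MSC labeled CpG were used for single values only. Each library comes from a separate donor or treatment, so a donor has no replicate within a treatment.

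Poly I:C is a synthetic double-stranded RNA. TLR3 binds such RNA in endosomes and signals through the adaptor TICAM1 to the kinase TBK1 and the transcription factor IRF3, which switch on type I interferon and chemokine genes, while the cytosolic helicases encoded by DDX58 and IFIH1 detect double-stranded RNA by another route through MAVS. Interferon then acts on the cells that made it and on their neighbors through the receptor subunits IFNAR1 and IFNAR2 and transcription factors that include STAT2 and IRF9, and raises a large group of antiviral and antigen presentation genes. In MSC, stimulation of this kind is studied as a way to change the factors that the cells secrete.

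The libraries held between 30596093 and 50109139 counts on genes, and a count of 3, taken as the floor, was worth 0.0604 to 0.0972 CPM (reads of a gene scaled to the library total, after TMM correction). Floors cover counting error only. Of the 9 MSC markers looked for, 8 were in the table, and their summed level was 3476 to 5145 CPM in untreated and 3254 to 5380 CPM in TLR3 activated MSC. The 13 markers of blood and endothelial cells summed to 49.8 to 61.1 CPM and 37.3 to 63.7 CPM. PTPRC, the pan-leukocyte marker, reached at most 0.242 CPM, CD3E was at or under the floor in all 6 libraries, and CD79A was at 0. Donor accounted for 99.4% of the spread along the first principal component of the 6 libraries, which held 57% of the variance. The TLR3 activated library of donor 92 stood apart from the other 2, since its interferon-stimulated genes lay at the untreated level, and the cause was not tested. Whether the cells of this library were exposed to the agonist, and whether its label is right, cannot be told from these files, so for donor 92 the words after the agonist refer to the library labeled so. The median chi-square of a gene between it and the untreated library of the same donor was 12.6 times that of sampling noise, against 10.4 in donor PC and 36.1 in donor 99. Counts over all genes and the main genes are given with and without donor 92. Donor 92 was set apart by the same interferon-stimulated genes that the fit without it then tests. The p-values of that fit are therefore descriptive and are no independent test.

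In donors PC and 99, interferon-stimulated genes were higher after the TLR3 agonist by as much as 8.60 on the log2(CPM + 1) scale (IFIT3 in PC), and in donor 92 none of the 59 measured was higher by 1 on that scale. ISG15, which encodes a ubiquitin-like protein that is attached to other proteins during infection, stood at 8.04, 7.74 and 14.4 CPM in untreated MSC of donors PC, 99 and 92. After the agonist it stood at 1994, 1360 and 9.31 CPM. Both TLR3 activated libraries of PC and 99 thus lay far above every untreated library, while that of 92 lay between the untreated libraries. These levels are 248, 176 and 0.649 times those of the same donor's untreated cells, and the log2 fold change over all 3 donors was 6.09 (SE 1.61, adjusted p = 0.847, edgeR quasi-likelihood test). Without donor 92 it was 7.75 (SE 0.35, adjusted p = 9.98e-06 in the same edgeR test). Over 18 alternatives the adjusted p of ISG15 ran from 5.09e-06 to 1, and for each of the 120 genes followed through the alternatives the highest was 1.

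Across all genes, none of the 14872 tested had an adjusted p-value under 0.05 in the paired edgeR fit over 9 libraries, and the smallest was 0.197, for CXCL11. The number at an unadjusted p under 0.05 was 476, or 3.2% of the genes tested, with 351 higher (2.36%) and 125 lower (0.841%) after the agonist. DESeq2 with the donor in its design gave 47 genes at an adjusted p under 0.05, 44 higher and 3 lower. The study's thresholds, an unadjusted p up to 0.05 together with 2 or more log2 units of change, were passed by 112 higher genes (0.753%) and 22 lower genes (0.148%). Of the 112, 108 were higher in both donors PC and 99, which the choice by a high fold change over the donors favors. In donor 92, 52 of the 112 were higher, much like the 6937 of all 14872 genes. The lists of RNA and DNA sensing, interferon signaling, interferon-stimulated effector and class I presentation genes used below hold 46 of the 112. Of the 22 lower genes, 19 had 1 of the groups at the floor.

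Leaving out donor 92 raised the number at an adjusted p under 0.05 to 167 of 14454 genes, with 153 higher (1.06%) and 14 lower (0.0969%). Leaving out donor PC or donor 99 gave 0 in edgeR, where the shares at an unadjusted p under 0.05 were 0.677% and 3.85%, against 10.3% without donor 92. The 153 genes that rose in the fit without donor 92 had log2 fold changes of 0.81 to 13.7 with a median of 2.76, and 65 of them are in the 4 lists named above. In donor 92, whose libraries this fit did not use, 46 of the 153 were higher and 100 lower after the agonist. Of all 14872 genes, 6937 were higher and 7532 lower in that donor. The median change of the 153 in donor 92 was −0.08 on the log2(CPM + 1) scale. This fit has 2 residual degrees of freedom.

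**Figure D1:**
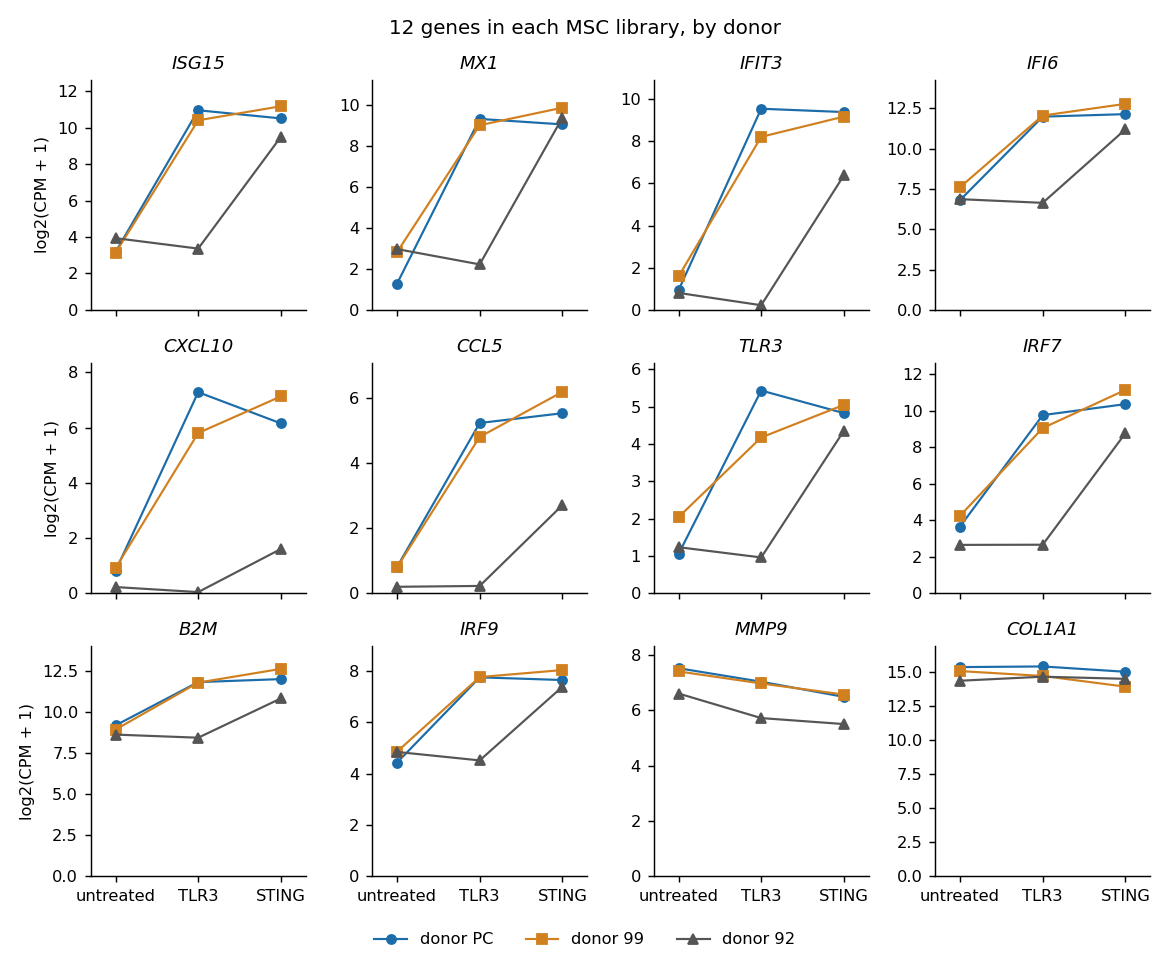
Levels of 12 genes as log2(CPM + 1), vertical axis, in untreated, TLR3 agonist and STING agonist MSC, horizontal axis, with 1 line per donor. In the panels of interferon-stimulated genes the lines of donors PC and 99 climb with the TLR3 agonist, as ISG15 does from 8.04 to 1994 CPM in PC, and the line of donor 92 stays flat or falls (14.4 to 9.31 CPM) and climbs with the STING agonist (722 CPM), while MMP9 is lower after the TLR3 agonist in all 3 donors.

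The size of the response was compared between donors by the change of each gene on the log2(CPM + 1) scale, the agonist library minus the untreated library of the same donor, for which no test is possible within a donor. A change of at least 1 upward, about a doubling, was seen for 220 genes in PC (1.48%), 165 in 99 (1.11%) and 4 in 92 (0.0269%). A change of at least 2 upward was seen for 104 (0.699%), 70 (0.471%) and 0 genes, and one of at least 2 downward for 0, 3 (0.0202%) and 0 genes. The genes higher by at least 1 in PC and in 99 shared 124 members, 56.4% of those of PC and 75.2% of those of 99. Neither set shared a member with the 4 genes of donor 92, which says little, since any 4 genes would rarely meet sets of 1.48% and 1.11%. The largest upward change was 8.60 in PC (IFIT3), 7.28 in 99 (ISG15) and 1.04 in 92 (SYNPO2). Downward changes of at least 1 were unevenly spread too, with 19 genes in PC (0.128%), 489 in 99 (3.29%) and 6 in 92 (0.0403%).

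**Figure D2:**
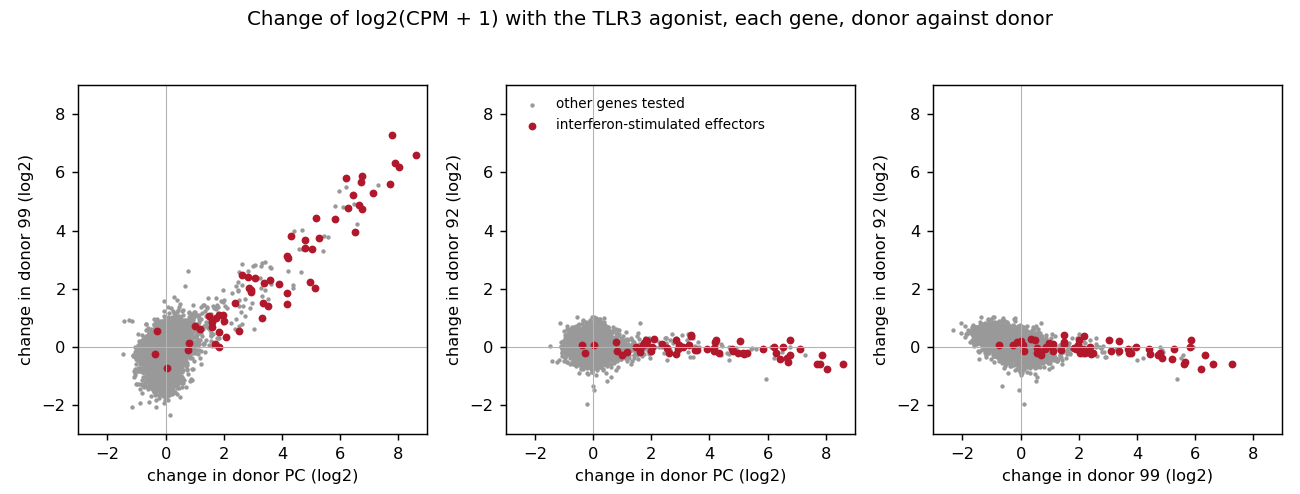
Change of log2(CPM + 1) with the TLR3 agonist for each of the 14872 genes tested, each pair of donors plotted against each other, with interferon-stimulated effectors as large red points. The red points run along a diagonal in the panel of PC against 99, where 57 of 59 changed more in PC, and along the zero line of donor 92 in the other panels, while the gray cloud of 99 against 92 slopes downward (Pearson's r −0.52 across genes).

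The genes of the sensors of double-stranded RNA were higher in donors PC and 99. TLR3 itself was at 1.07, 3.11 and 1.35 CPM in untreated MSC of PC, 99 and 92 and at 42.2, 17.1 and 0.942 CPM after its agonist. Its levels were 39.5 and 5.49 times the untreated ones in PC and 99 and 0.698 times in 92, and the fit gave a log2 difference of 2.94 (SE 0.91, adjusted p = 1, edgeR) over all donors and 3.82 (SE 0.54, adjusted p = 0.00768, edgeR) without donor 92. The untreated level of TLR3 in donor 92 lay between those of the other donors. DDX58, the gene of the helicase RIG-I, went from 19.1 to 370 CPM in PC, from 16.1 to 104 CPM in 99 and from 11 to 11.4 CPM in 92. IFIH1, the gene of the helicase MDA5, went from 1.3 to 97.7 CPM, from 4.01 to 48 CPM and from 0.312 to 0.249 CPM. DHX58, whose product modulates both helicases, was 300 times higher in PC and 65.7 times higher in 99, and stood at 0.589 times the untreated level in 92.

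In all, 8 of the 18 sensing genes tested had an unadjusted p under 0.05, all higher, against 2.36% of all genes. The same 8 rose in the fit without donor 92: TLR3, DDX58, IFIH1, DHX58, IRF7, EIF2AK2, ZBP1 and CGAS. IRF7, the factor that amplifies interferon transcription, reached 862 CPM in PC and 526 CPM in 99 from 11.6 and 17.9 CPM, and was at 5.25 and 5.29 CPM without and with the agonist in 92. ZBP1, a sensor of Z-form nucleic acid, had 6, 3 and 0 counts in untreated MSC and 6368, 2851 and 0 counts after the agonist. EIF2AK2, the gene of the kinase PKR, which halts translation when it binds double-stranded RNA, had the largest upward change of the sensing genes in donor 92 (0.44 on the log2(CPM + 1) scale) and was at 11.4, 4.98 and 1.42 times the untreated level in PC, 99 and 92. CGAS, the cytosolic DNA sensor upstream of STING, went from 2.79 to 20.8 CPM in PC, from 3.79 to 11.8 CPM in 99 and from 4.2 to 2.83 CPM in 92.

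The adaptors and kinases between sensor and interferon gene did not pass the test. TICAM1, the adaptor of TLR3, stood at 13.2 to 14.6 CPM in untreated and 14.2 to 16.2 CPM in TLR3 activated MSC, and its log2 fold change was 0.16 (SE 0.14). For MAVS it was −0.02 (SE 0.12), for TBK1 0.22 (SE 0.17) and for IRF3 0.04 (SE 0.11). Without donor 92 the 4 values ran from −0.12 (MAVS) to 0.29 (TBK1), with edgeR adjusted p-values of 0.596 to 0.908. In untreated MSC of donor 92, TICAM1 and MAVS lay between the levels of the other donors, and TBK1 (25.1 CPM against 33.7 and 34.5 CPM) and IRF3 (81.4 CPM against 96.9 and 93 CPM) below them. STING1 was at 10.5 to 22.4 CPM and 11.8 to 17.8 CPM. The median log2 fold change of the sensing genes was 0.57, against 0.01 for all genes tested, and the medians of the donors were 0.75, 0.33 and 0.00.

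The interferon genes IFNB1 and IFNG were at or near 0 at the time of lysis. IFNB1, the gene of interferon beta, had 2 counts in the TLR3 activated library of PC and 0 in the other 5, and IFNG had 0 in all 6, so neither was tested. A count of 0 allows up to 3 counts, or 0.0972 CPM in the shallowest of the 6 libraries. Of the 21 receptor and signaling genes tested, 5 were higher at an unadjusted p under 0.05 (STAT2, IRF9, SOCS1 and USP18 among them) and 2 were lower (IFNAR1 and IFNAR2), against 2.36% and 0.841% of all genes.

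IRF9, which brings the interferon-activated factor to DNA, went from 20.5, 27.8 and 27.6 CPM in untreated MSC of PC, 99 and 92 to 213, 214 and 21.8 CPM after the agonist. STAT2, its partner in that factor, went from 31.9, 26.8 and 22.7 CPM to 138, 35.1 and 28.2 CPM. In both genes PC and 99 were above all 3 untreated libraries after the agonist, and 92 was not. Genes that restrain the pathway were higher too. USP18, which removes ISG15 and dampens the receptor, went from 0.259 to 120 CPM in PC and from 2.49 to 63.8 CPM in 99, and SOCS1, an inhibitor of the JAK kinases, was 5.21 and 2.5 times higher in these donors and 0.783 times the untreated level in 92. IRF9, SOCS1 and USP18 rose in the fit without donor 92, with edgeR adjusted p-values of 1.71e-05, 0.031 and 0.0011, and for STAT2 that value was 0.168.

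The receptor genes went the other way in the same donors. IFNAR1 was at 45, 42.7 and 31.7 CPM in untreated and 29, 15.2 and 36.1 CPM in TLR3 activated MSC, lower in PC and 99 and higher in 92. Its log2 fold change was −0.64 (SE 0.27, unadjusted p = 0.043, edgeR) and −1.05 (SE 0.22, adjusted p = 0.0765, edgeR) without donor 92. IFNAR2 was at 48.1, 60.9 and 14.4 CPM in untreated MSC, so that donor 92 had the lowest level, and at 0.708, 0.7 and 0.931 times these levels after the agonist. IFNGR2, a subunit of the interferon gamma receptor, separated the donors further, with 112 and 143 CPM in untreated MSC of PC and 99 and 9.99 CPM in 92, and it did not pass the test between treatments (log2 fold change −0.18, SE 0.16). JAK1, a kinase bound to the receptor, had a log2 fold change of −0.21 (SE 0.21), and TYK2, its partner, one of −0.10 (SE 0.17). Without donor 92 these were −0.48 and −0.32, with edgeR adjusted p-values of 0.454 and 0.515.

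**Figure D3:**
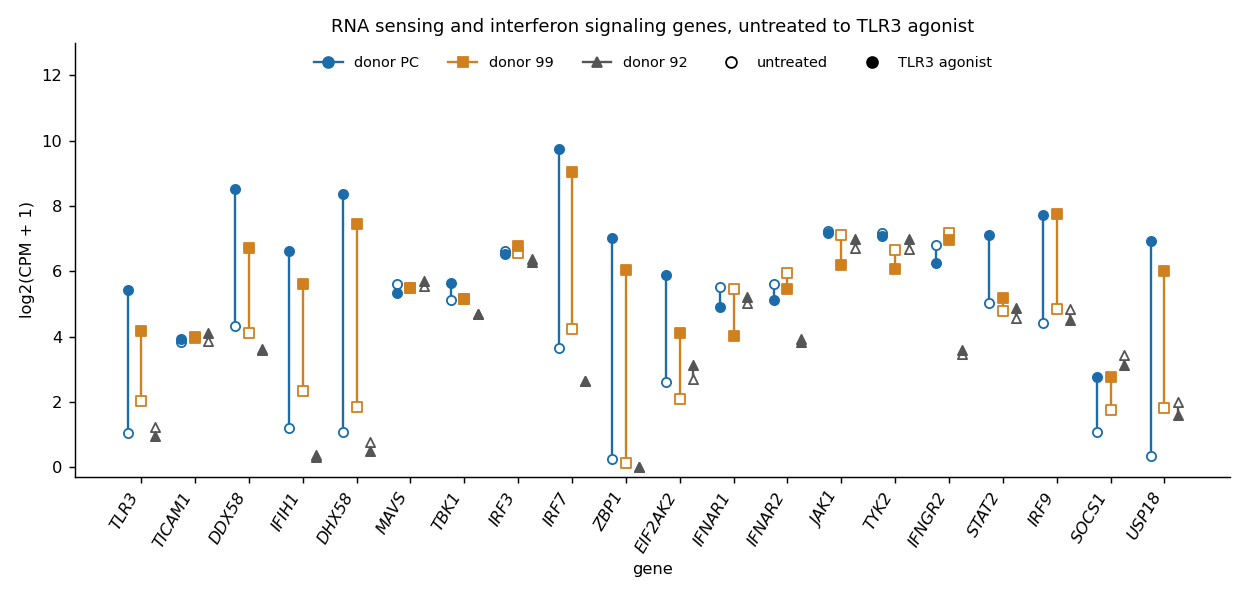
Levels of 20 genes of RNA sensing and interferon signaling as log2(CPM + 1), vertical axis, in untreated (open symbols) and TLR3 activated MSC (filled symbols), with 1 line per donor and gene. Long lines mark the sensors TLR3, DDX58, IFIH1 and DHX58 and IRF7, ZBP1 and USP18 in donors PC and 99, while TICAM1, MAVS, TBK1 and IRF3 are nearly level and IFNAR1 is lower in PC and 99.

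Of 18 gene lists, the interferon-stimulated effectors had the highest median. Of the 59 tested, 57 were higher in the fit, against 51.2% of all genes, and 52 (88.1%) were so at an unadjusted p under 0.05, against 2.36% of all genes. The study's thresholds were passed by 37, against 0.753% of all genes. The median log2 fold change was 2.43, and 3.10 without donor 92, where 45 of the 59 rose at an adjusted p under 0.05. The medians of the donors on the log2(CPM + 1) scale were 3.50 in PC, 2.16 in 99 and −0.07 in 92, with 54, 42 and 0 genes higher by at least 1. Together these genes took 0.109%, 0.138% and 0.113% of the counts in untreated MSC of PC, 99 and 92 and 2.16%, 1.53% and 0.111% after the agonist. The list was written with earlier results of these data known.

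The list holds antiviral proteins of several kinds. MX1, a GTPase that traps viral nucleocapsids, went from 1.43 to 635 CPM in PC, from 6.05 to 513 CPM in 99 and from 6.81 to 3.66 CPM in 92. IFIT3, whose product belongs to a family that binds foreign RNA, was 817 and 146 times higher in PC and 99 and stood at 0.222 times the untreated level in 92. Its relatives IFIT2 and IFIT5 were 44.3 and 19.3 times higher in PC and 4.55 and 2.95 times higher in 99. In each of these genes the TLR3 activated library of donor 92 stayed within or below the range of the untreated libraries or, for IFIT5, slightly above it (18.9 CPM against 13.6 to 16.7 CPM).

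Of the oligoadenylate synthetases, which make a second messenger of the antiviral response, OAS1 reached 418, 227 and 21.8 CPM from 22.4, 25.4 and 24.2 CPM, OAS2 was 28.1, 13.1 and 0.957 times and OAS3 84, 29.4 and 0.863 times the untreated level. OASL had 2, 1 and 2 counts in untreated MSC and 7320, 1721 and 0 after the agonist. TRIM22, a ubiquitin ligase, had 0 counts in all 3 untreated libraries and 4519 counts in PC, 640 in 99 and 0 in 92 after the agonist, at least 936-fold higher in PC and at least 171-fold higher in 99, with 3 counts per library as the floor. Members of the OAS and IFIT families resemble each other in sequence, and how reads shared between them were assigned is uncertain.

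IFI6, LGALS3BP and IFI27, each at over 20 CPM before treatment, showed the same split between donors. IFI6, an interferon-induced mitochondrial protein gene, was at 111, 195 and 116 CPM in untreated MSC and 4056, 4252 and 98.8 CPM after the agonist. LGALS3BP, the gene of a secreted glycoprotein, went from 34.3, 55 and 20.7 CPM to 1369, 747 and 18 CPM. IFI27 went from 34.2, 176 and 184 CPM to 1996, 3736 and 174 CPM. The genes that attach ISG15 were higher in the same libraries, with the activating enzyme UBA7 at 11.5, 4.89 and 1.43 times, the conjugating enzyme UBE2L6 at 7.47, 5.51 and 0.842 times and the ligase HERC5 at 79.6, 17 and 1.24 times the untreated level.

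The effectors kept their order from donor PC to donor 99, with a Spearman rho of 0.936 across the 59 genes, and 57 of them changed more in PC than in 99. The change in donor 92 ran from −0.75 (MX1) to 0.41, with 22 genes higher and 35 lower (6937 and 7532 of all 14872 genes). The rho of donor 92 was −0.438 with PC and −0.513 with 99. These genes share their libraries and depth, and a ranking across genes is a description without a test. Set against the range of the 3 untreated libraries, 56 effectors in PC and 53 in 99 lay above all of them, and in 92 only 6 did, with 32 within the range and 21 below it. Over all genes the share above the range was 23.1%, 26.6% and 17.5%. The effectors that did not pass an unadjusted p of 0.05 were IFI27L2, SAMHD1, TRIM25, TRIM26, GBP6, PLSCR1 and TREX1, with log2 fold changes of −0.23 (SAMHD1) to 0.83 (TRIM25).

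**Figure D4:**
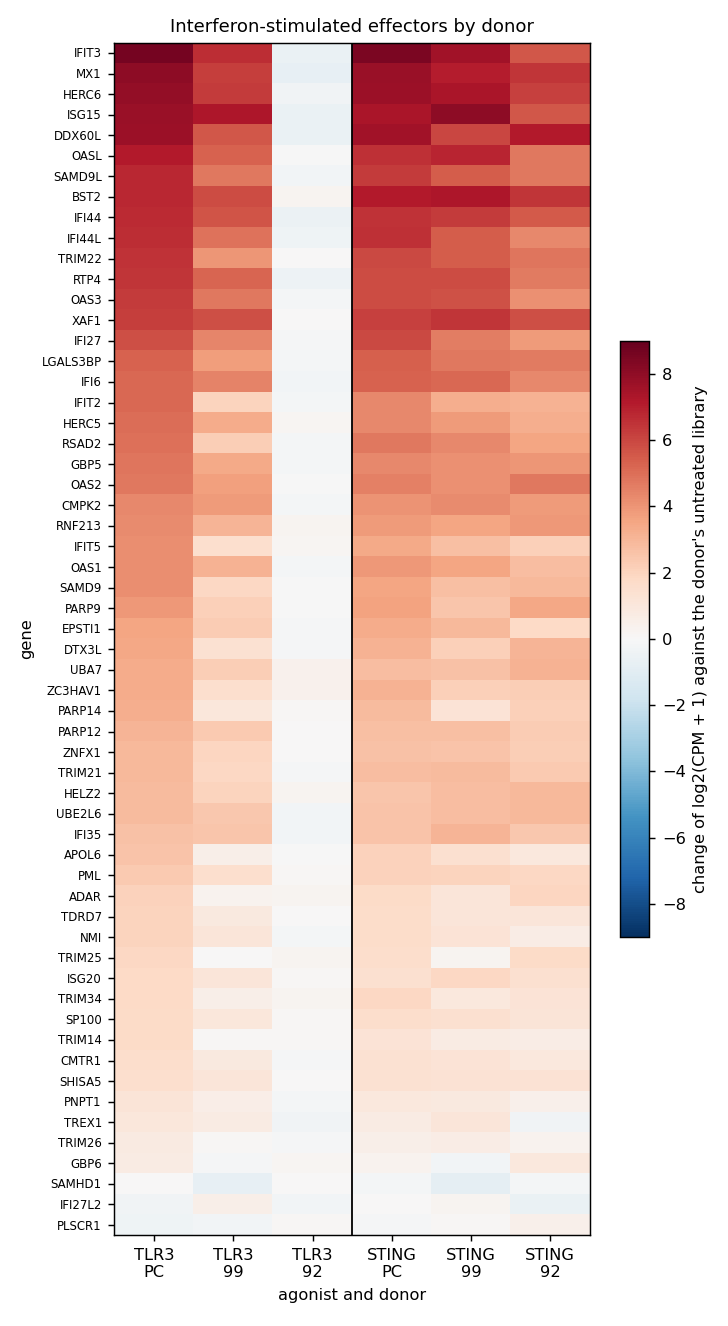
Change of log2(CPM + 1) against the untreated library of the same donor for the interferon-stimulated effectors, ordered by their change in donor PC, with the TLR3 agonist (left columns) and the STING agonist (right columns), with 1 of the 59 not drawn. The column of the TLR3 agonist in donor 92 is near white, with values of −0.75 to 0.41, while the STING agonist in the same donor gave a change of at least 1 in 47 of 59 genes.

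After the STING agonist these genes were higher in MSC of all 3 donors. With it, 52, 50 and 47 of the 59 effectors were higher by at least 1 in PC, 99 and 92, and they took 2.05%, 2.53% and 1.35% of the counts. MX1 was at 528, 928 and 660 CPM and TLR3 at 27.4, 32.1 and 19.4 CPM in these libraries. The libraries labeled CpG had 0 effectors higher by at least 1 in each donor. Both agonists were compared with the same untreated libraries. In the direct test of STING against TLR3 agonist, 0 genes had an adjusted p under 0.05 with edgeR and 10 with DESeq2, while 194 genes were higher (1.3%) and 190 lower (1.28%) at an unadjusted p under 0.05 in edgeR. Without donor 92 the edgeR counts were 0 and, in both directions together, 422.

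Genes of MHC class I presentation were higher by smaller factors. B2M, the light chain of class I molecules, was at 582, 488 and 395 CPM in untreated MSC and 3618, 3541 and 346 CPM after the agonist, and unlike most effectors it changed slightly more in 99 (7.26 times) than in PC (6.21 times). Of the 16 class I genes tested, 12 were higher at an unadjusted p under 0.05 (2.36% of all genes) and 8 rose in the fit without donor 92 (1.06%), with list medians of 1.23, 0.88 and −0.13 in PC, 99 and 92. PSMB8 and PSMB9, immunoproteasome subunits that shape the peptides, were 5.68 and 3.59 times higher in PC, 4.54 and 3.49 times higher in 99 and at 0.86 and 0.82 times the untreated level in 92. The peptide transporter gene TAP1 was at 2.51, 1.65 and 1.25 times the untreated level, and NLRC5, the transactivator of class I genes, at 1.81, 2.72 and 1.35 times, both higher in all 3 donors. The chaperone genes CALR (log2 fold change 0.14, SE 0.16) and PDIA3 (0.10, SE 0.13), which serve many glycoproteins, did not pass. MHCX1, a class I gene chosen here after its values were seen, went from 86.5, 108 and 276 CPM to 706, 745 and 271 CPM, and its reads may be shared with other class I genes.

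Of the class II genes, the transactivator CIITA had at most 3 counts in any of the 6 libraries, and DRA had 1, 1 and 7 counts in untreated and 6, 9 and 2 in TLR3 activated MSC. Of the 13 class II genes tested, CTSS was the one higher at an unadjusted p under 0.05 in edgeR, against 2.36% of all genes. This gene of a protease of the endosome was at 3.97, 2.97 and 0.77 times the untreated level. With the STING agonist, DRA was at 0.967, 6.21 and 8.6 CPM and CD74, the invariant chain, at 1.62, 7.78 and 20.6 CPM, against 0.342, 0.0904 and 0 CPM for CD74 with the TLR3 agonist. The direct test of the agonists gave unadjusted p-values of 2.91e-05 for DRA and 0.00106 for CD74 in edgeR, and neither passed adjustment.

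Among the chemokines, CXCL10, CXCL11 and CCL5 were higher in PC and 99, and the neutrophil attractants did not pass the test. CXCL10, which draws activated T cells, was at 0.745, 0.876 and 0.166 CPM in untreated MSC and 155, 54.9 and 0.0277 CPM after the agonist. Its log2 fold change was 6.31 (SE 1.10, adjusted p = 0.847, edgeR), and 6.98 (SE 0.62, adjusted p = 0.00039, edgeR) without donor 92. CCL5 went from 0.745, 0.734 and 0.145 CPM to 36.4, 26.8 and 0.166 CPM. CXCL11 had 0, 1 and 0 counts in untreated and 15, 96 and 3 in TLR3 activated MSC, so that the smallest p of the whole comparison rests on low counts. CXCL10, CXCL11 and CCL5 rose in the fit without donor 92, and with CCL11 and CXCL16 they made 5 of 15 chemokines higher at an unadjusted p under 0.05, against 2.36% of all genes. CCL2, a monocyte attractant, was at 403, 400 and 45.9 CPM in untreated MSC and at 1.18, 1.07 and 1.09 times that after the agonist. Of the neutrophil attractants, CXCL6 had a log2 fold change of −0.65 (SE 0.38) and CXCL8 one of −0.28 (SE 0.65).

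Some genes of the list of MSC immunomodulatory mediators passed an unadjusted p of 0.05. Of 28 tested, CD274 and LAG3 were higher and CD200 and IL7 lower at that level, against 2.36% and 0.841% of all genes. Of the 27 tested without donor 92, 0 had an adjusted p under 0.05 in edgeR. CD274, the gene of PD-L1, had 4, 0 and 1 counts in untreated and 117, 7 and 3 in TLR3 activated MSC. LAG3, a checkpoint receptor gene, had 3, 8 and 0 counts and 47, 55 and 4 counts. Both had more counts after the agonist in every donor, at low levels. In donor 92 the counts were at or near the floor of 3 (1 and 3 for CD274, 0 and 4 for LAG3). A rise in that donor can therefore not be told from counting error. Outside donor PC, CD274 had at most 7 counts. PTGS2, the inducible enzyme of prostaglandin synthesis, had a log2 fold change of −0.08 (SE 0.48), the growth factor gene TGFB1 one of 0.20 (SE 0.22) and HGF one of −0.07 (SE 0.17), and without donor 92 they had −0.23, 0.20 and 0.06.

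TLR3 also signals to NF-κB. Of 25 NF-κB target and inflammatory cytokine genes tested, 0 were higher and 2 lower at an unadjusted p under 0.05 in edgeR, against 2.36% and 0.841% of all genes. IL6 had 8 to 13 counts in untreated and 3 to 42 counts in TLR3 activated MSC. ICAM1, an adhesion molecule for leukocytes, went from 147, 183 and 43.6 CPM to 70.6, 107 and 48.1 CPM, lower in PC and 99 and slightly higher in 92, and it fell in the fit without donor 92 (log2 fold change −0.89, SE 0.16, adjusted p = 0.0275, edgeR). IL12A, a cytokine subunit, was lower in all 3 donors at 0.681, 0.215 and 0.406 times the untreated level, from 21, 26 and 92 counts. NFKBIA and TNFAIP3 encode feedback inhibitors, and their log2 fold changes were −0.30 (SE 0.14) and −0.41 (SE 0.21).

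A few genes of cell death and complement were higher in the same donors. TNFSF10, the gene of the death ligand TRAIL, went from 0.259, 5.08 and 4.01 CPM to 37.3, 27.3 and 3.94 CPM. MLKL, the executor of necroptosis, was at 8.71, 4.23 and 1.1 times and GSDMD, the pore former of pyroptosis, at 3.19, 2.59 and 0.925 times the untreated level. These are among the 4 of 24 cell death genes that were higher at an unadjusted p under 0.05, against 2.36% of all genes. Of the complement genes, C2, a protease of the classical pathway, went from 1.13, 7.85 and 2.85 CPM to 43.8, 35.1 and 3.1 CPM. C1R and the inhibitor gene SERPING1 were 3.09 and 2.09 times higher in PC, 1.36 and 1.27 times higher in 99 and at 0.985 and 0.954 times the untreated level in 92. With them, 3 of 13 complement genes were higher at an unadjusted p under 0.05 in edgeR, against 2.36% of all genes.

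Single genes that mark cell identity passed an unadjusted p of 0.05. Of 15 MSC surface marker genes tested, MCAM was the one lower at that level in edgeR, against 0.841% of all genes. It was at 0.613, 0.409 and 1.06 times the untreated level, and it fell in the fit without donor 92 (log2 fold change −0.96, SE 0.18, adjusted p = 0.0426, edgeR). The standard markers THY1, ENG and CD44 stood at 0.29 (SE 0.16), 0.22 (SE 0.13) and 0.11 (SE 0.13) on the log2 fold change scale, and at 0.47, 0.37 and 0.11 without donor 92. Of 16 blood and endothelial genes tested, CD68 was the one higher, against 2.36% of all genes. This lysosomal membrane protein gene, which is used as a macrophage marker, went from 12.1, 15.2 and 12.7 CPM to 139, 123 and 9.78 CPM. It moved with the interferon genes in PC and 99, and its part in their levels was not tested.

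A few genes were higher or lower in all 3 donors, which held for 959 (6.45%) and 1353 (9.1%) of all genes by sign alone. Of the 10 higher ones with the smallest p, ZCCHC2, a zinc finger gene, was the one whose change in donor 92 (0.82 on the log2(CPM + 1) scale) lay between those of the others (1.63 and 0.71). It was at 4.41, 3.08 and 2.37 CPM untreated and 3.56, 1.83 and 2.1 times higher after the agonist (log2 fold change 1.31, SE 0.25, adjusted p = 0.847, edgeR), and without donor 92 its log2 fold change was 1.39 (SE 0.27, adjusted p = 0.0543, edgeR). BST2, the tether that holds budding virions, was 136, 69.6 and 1.62 times higher, AGRN, the gene of agrin, 5.65, 3.96 and 1.24 times and BATF2, a transcription factor gene, 15.9, 5.55 and 1.49 times. In donor 92 these 3 changed by 0.23 to 0.31 on the log2(CPM + 1) scale. The values of BST2 and BATF2 in that donor rest on low counts, 19 and 44 untreated and 23 and 49 after the agonist.

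Other genes were lower in every donor. MMP9, a matrix metalloproteinase, was at 182, 168 and 96.3 CPM in untreated MSC and at 130, 124 and 51.6 CPM after the agonist, and the groups overlapped. Its log2 fold change was −0.57 (SE 0.13, unadjusted p = 0.00147, adjusted p = 0.847, edgeR), with donor 92 changing most, and −0.45 (SE 0.14, adjusted p = 0.314, edgeR) without donor 92. SLPI, an inhibitor of leukocyte elastase, was at 0.433, 0.653 and 0.633 times, CPXM1, a carboxypeptidase-like gene, at 0.655, 0.656 and 0.642 times and the antioxidant gene GPX3 at 0.571, 0.611 and 0.795 times the untreated level. MMP9, MMP12 and a gene listed by identifier only were the 3 genes lower at an adjusted p under 0.05 in DESeq2 with the donor in its design.

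Of the 14 genes that fell in the fit without donor 92, ICAM1 and MCAM were given above. The others were ITGB3, TNN, CP, CD109, SULF1, DNER, COL12A1, ABCA1, LAMA2, ITGA8, GBE1 and RTN1, named after their values were seen. ITGB3, an integrin subunit, was at 0.435 and 0.211 times the untreated level in PC and 99 and 1.79 times in 92, and TNN, a tenascin gene, at 0.503, 0.393 and 1.25 times. Of these 14 genes, 13 were higher in donor 92, against 6937 of all 14872 genes, with a median change of 0.35 on the log2(CPM + 1) scale. Of 35 extracellular matrix genes, 27 were lower in the fit, against 7261 of all 14872 genes. MMP9 and MMP13 were so at an unadjusted p under 0.05 in edgeR, against 0.841% of all genes. The medians of the donors were −0.20, −0.40 and 0.23.

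**Figure D5:**
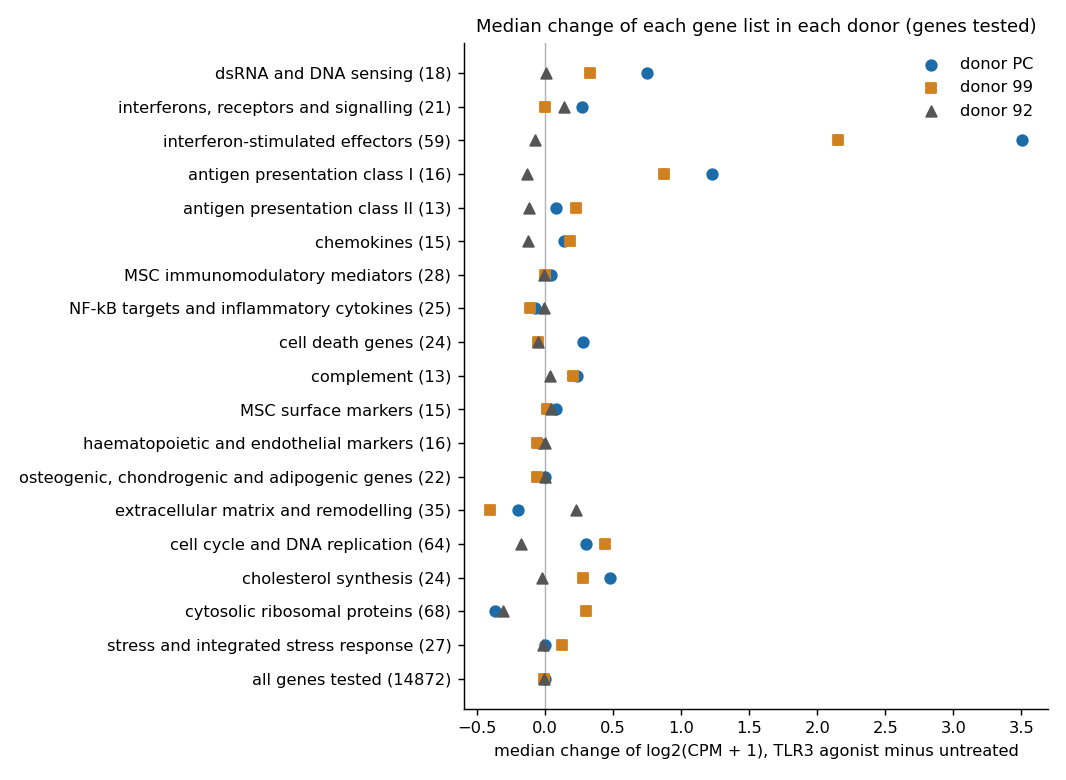
Median change of log2(CPM + 1) with the TLR3 agonist over the genes tested of each of 18 lists and over all genes, horizontal axis, in each donor. The interferon-stimulated effectors lie at 3.50 in PC and 2.16 in 99 and at −0.07 in 92, the class I genes at 1.23, 0.88 and −0.13, and most other lists within 0.5 of zero.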

How the data were processed

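RNA of 12 MSC libraries was sequenced as poly-A RNA. Per the submitters' processing notes and the study's methods, adapters were removed with Cutadapt 1.12, STAR was used to map reads to EquCab3.0, and HTSeq 0.11.0 assigned them to genes, of which the protein coding ones were retained. The deposited values are raw read counts, as whole numbers. Whether the counting used strand is not given in the sources used here. The table lists 20881 genes, 3970 by identifier only, which were counted but not named. The largest counts, in 2 genes (COL1A1 and COL1A2), are stored rounded.

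The 9 libraries without the label CpG were fitted with edgeR 4.0.16 in R 4.3.3 (TMM scaling, quasi-likelihood test, donor as a block, 4 residual degrees of freedom), with genes of at least 10 counts in total and Benjamini-Hochberg adjustment over all genes tested. The libraries pair by donor: the correlation across genes of deviations from the condition means was 0.659 to 0.900 within donors (9 pairs) and −0.788 to 0.150 between them (27 pairs). Centering on the mean of 3 donors by itself pushes the values between donors toward negative ones. Changes within a donor are differences of log2(CPM + 1), and folds within a donor are ratios of CPM, given where the untreated library was above the floor of 3 counts. Alternatives included DESeq2 1.42.0, RLE scaling, other filters, other sets of libraries and leaving out each untreated and TLR3 library and each donor. STING libraries were not left out singly. The script for the test was tested on simulated counts.

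The 18 gene lists and the genes to be named were chosen with earlier results of these data known, so lists are described by counts and medians without a test. Genes named were all sensing and interferon list members, up to 6 with the smallest p and 2 with the highest mean CPM of each other list, up to 10 per direction with the smallest p and the same sign in all donors, up to 10 per direction with the largest change in each donor, 8 genes that the study names, and up to 10 genes called in the main or an alternative fit. Some genes that this rule takes are not reported here. Other genes are marked as chosen after their values were seen. No coordinates are given, since the gene table used here is of another assembly.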

Additional observations from a re-analysis of the deposited data

How the results depend on the processing

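The number of genes with an adjusted p under 0.05 was 0 with no replicate block, so leaving out the donor block did not change it, although the count at an unadjusted p under 0.05 went from 476 to 171. It was also 0 with RLE scaling, filterByExpr, no filter, all 12 MSC libraries and a prior count of 2. It was 47 in DESeq2 with the donor in the design, 5 with only the 6 untreated and TLR3 agonist libraries (XAF1, ZBP1, TRIM22, OASL and 1 listed by identifier) and 52 in DESeq2 with no replicate block, a setting chosen after seeing the data. Leaving out libraries or donors gave 0 to 167: 115 without the TLR3 activated library of donor 92, 4 without its untreated library, 167 without both and its STING library, and 0 for each untreated and TLR3 activated library of PC and 99 and for these donors as a whole. The higher genes past the study's thresholds numbered 35 to 157 in these leave-outs against 112, with 62 without the TLR3 activated library of donor PC and 35 without donor PC. The lower ones numbered 11 to 35 against 22 (35 without the untreated library of 92, 34 without donor 92 and 11 without donor PC), and 1 with filterByExpr, 1 with a prior count of 2, 10 in DESeq2 with no block, 13 with 6 libraries and 42 with 12 libraries. The STING against TLR3 count was 10 in DESeq2 with the donor and 1 without the block, and the fit on 6 libraries cannot give it. The sensing median of 0.57 ran from 0.18, without the TLR3 activated library of PC, to 0.89 in the leave-outs. The medians of the effectors (1.36 to 3.10 in the leave-outs) and class I genes (0.46 to 1.09) kept their sign. Of 120 genes followed under up to 18 alternatives each, 0 reversed. They were mainly list genes at an unadjusted p under 0.05 in the main edgeR fit or genes of the same sign in all donors. Keeping their sign was therefore largely set by that choice. Of the genes reported above but not among the 120, HGF changed sign without donor 92. Where a left-out library leaves a donor incomplete, its spread is taken from the other libraries. The cause of these differences was not tested beyond what each setting leaves out. Genes under 3 counts per library cannot be measured at this depth.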

Other observations

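Lists of cell cycle, cholesterol and ribosomal genes differed between donors. Of 64 cell cycle and DNA replication genes, 56 were higher in the fit, against 51.2% of all genes. At an unadjusted p under 0.05 in edgeR 1 was higher (KIF20A, a mitotic kinesin), against 2.36% of all genes. The medians were 0.30 and 0.44 in PC and 99 and −0.18 in 92 on the log2(CPM + 1) scale. KIF20A was at 11.4, 30.3 and 127 CPM in untreated MSC of PC, 99 and 92 and at 23.3, 65.1 and 116 CPM after the agonist, so the donors differed more than the treatments. Of 24 cholesterol synthesis genes, 23 were higher, 5 of them (HMGCS1, CYP51A1, SC5D and SREBF2 among them) at an unadjusted p under 0.05 against 2.36% of all genes. Their medians in PC, 99 and 92 were 0.48, 0.28 and −0.02 with the TLR3 agonist and 0.45, 0.11 and −0.01 with the STING agonist. The libraries labeled CpG had higher medians in each donor (0.62, 0.39 and 0.02), so the shift was not particular to the TLR3 agonist. Of 68 cytosolic ribosomal protein genes, 2 were higher in PC, 66 in 99 and 0 in 92, with medians of −0.37, 0.30 and −0.31, and 0 passed an unadjusted p of 0.05 in edgeR. These genes took 5.59%, 7.76% and 7.95% of the counts in untreated MSC and 4.29%, 8.91% and 6.63% after the agonist.

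Of the 489 genes that were lower by at least 1 in donor 99, 3 were so in donor PC too, which is 0.613% of the 489 and 15.8% of the 19 of PC, against 3.29% of all genes lower by at least 1 in 99. In PC the median change of the 489 was −0.04 and 271 were lower. In donor 92, 467 of the 489 were higher, with a median of 0.39, against 6937 higher of all 14872 genes. The downward changes in 99 were led by KITLG, the ligand of KIT, with −2.34 in 99, 0.14 in PC and 0.60 in 92, RHOBTB3 (−2.07, −0.34 and 0.48) and ITGB3 (−2.05, −1.14 and 0.81). Across all genes the changes of 99 and 92 had a Pearson's r of −0.515, and those of PC and 99 one of 0.520. Over 14644 genes the values were −0.591 and 0.137. These leave out the sensing, interferon, effector, class I and chemokine lists and all genes called in the fit without donor 92. That choice removes genes that changed alike in PC and 99, which by itself lowers the value of this pair. The 4 libraries behind the value of −0.515 are separate, each donor's change comes from 1 pair of libraries, and the cause was not tested.

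The largest changes in donor 92 were downward. The calcitonin family genes CALCB and CALCA changed by −1.95 and −1.47 on the log2(CPM + 1) scale, with −0.20 and 0.03 in PC and 0.12 and −0.04 in 99. In 92, CALCB went from 16.3 to 3.49 CPM and CALCA from 19.3 to 6.32 CPM. In PC and 99, CALCB was at most 0.583 CPM and CALCA at most 0.0282 CPM, which left little room to measure a fall. A gene listed by identifier only (ENSECAG00000033029) changed by −1.09 in 92, from 15.3 to 6.68 CPM, and by 5.95 and 5.37 in PC and 99. MMP12, a macrophage-type metalloproteinase, was at 36.2 CPM in untreated and 13.8 CPM in TLR3 activated MSC of 92, and at or under 0.65 CPM in the other donors. MMP1, chosen after its values were seen, was at 147 and 85.7 CPM in 92 and at most 0.254 CPM in the other donors.

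Donor 92 also had lower levels than the others before treatment in some genes of the interferon, chemokine and NF-κB systems. IFNGR2 was at 9.99 CPM in its untreated MSC against 112 and 143 CPM, CCL2 at 45.9 against 403 and 400 CPM, and TNFAIP3, a feedback inhibitor of NF-κB, at 0.976 against 11.6 and 15.1 CPM. IFNAR1 was at 31.7 against 45 and 42.7 CPM. With 1 untreated library per donor these differences have no test. The genes are examples without a count over their lists, and TLR3, TICAM1 and MAVS of untreated donor 92 lay between the other donors. The donors also differed across all genes, since donor accounted for 99.4% of the spread along the first principal component. Whether these levels bear on the response was not tested.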
